A study of Drosophila melanogaster with 33 samples.

Results

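Cuticle protein genes of the Cpr and Twdl families were examined for nearby Lola-I binding in late *Drosophila melanogaster* embryos. Members were the genes of the Ensembl annotation of the dm6 genome whose symbol starts with Cpr and a digit, or with Twdl. There were 96 of them, 70 Cpr and 26 Twdl, among 18277 genes on the 7 chromosome arms. Of the members, 95 are annotated as protein-coding and 1, *TwdlU*, as a pseudogene. They lie mainly on 3L (35), 3R (25) and 2R (22), with 8 on X and 6 on 2L. Most have a single annotated transcription start site (TSS): 88 have 1, 7 have 2, and *TwdlG* has 3. Family members with symbols of another form were not included, such as *Tb*, a Tweedle gene.

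The insect cuticle is a layered coat of chitin and protein that the epidermis secretes, and the first larval cuticle is laid down late in embryogenesis. Cpr genes encode secreted proteins with the Rebers and Riddiford domain, which binds chitin, and Twdl genes encode the Tweedle cuticle proteins, of which some alter body shape when mutated. Genes of both families often stand in tandem arrays. Lola-I is one of the transcription factor isoforms made from the gene *lola*, with a BTB domain and zinc fingers, and the series title describes it as a pioneer factor at promoters. The question was which of these cuticle protein genes had Lola-I near their start sites. Members were chosen by symbol, and the stage at which each is expressed was not examined.

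The series holds 33 samples in 12 groups. Used here were the 2 Lola-I ChIP-seq libraries from wild-type OregonR embryos of 14 to 17 h, fixed with formaldehyde and precipitated with a custom rabbit polyclonal antibody against Lola-I. The other 31 samples were not analysed here. Each library came as a list of peaks, with 1759 peaks in replicate 1 and 9674 in replicate 2, of which 1750 and 9665 lay on the arms. Of the arm peaks, 87.5% of the replicate 1 list overlapped the replicate 2 list, and 15.2% of the replicate 2 list overlapped the replicate 1 list. Sequencing depth is not given by peak lists, so it is unknown, and a gene without a peak is one where none was listed. Fold enrichments are the authors' per-peak values, and ranks follow the authors' score within one list, so neither scale need be the same between the lists. The libraries come from whole embryos, so binding in fewer cells and weaker binding per cell cannot be told apart, and the lists hold nothing with which to check the tissue. The labels do not say whether the replicates are separate collections of embryos.

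A total of 5 members had a peak within 2000 bp that was found in both lists, meaning that the replicate 1 and replicate 2 intervals overlapped by at least 1 bp. These are *TwdlG*, *Cpr62Ba*, *Cpr65Ay*, *Cpr23B* and *Cpr51A*. The reference sequence around the replicate 1 summit, the base of highest signal, is shown for 4 of them because the same word recurs in each. Letters are the plus strand of dm6 from RefSeq Release 6, and capitals mark AAAGCT or its reverse complement AGCTTT. The stretch at *TwdlG* is chr3R:4251342-4251541, that at *Cpr62Ba* is chr3L:1831904-1832104, that at *Cpr65Ay* is chr3L:6157903-6158074 and that at *Cpr23B* is chr2L:2839548-2839710. Bases inside the member gene were left out, which shortens 3 of the 4.
TwdlG: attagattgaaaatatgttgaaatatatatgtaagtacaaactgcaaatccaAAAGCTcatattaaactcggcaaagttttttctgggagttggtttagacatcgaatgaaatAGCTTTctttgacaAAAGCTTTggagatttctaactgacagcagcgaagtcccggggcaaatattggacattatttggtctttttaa
Cpr62Ba: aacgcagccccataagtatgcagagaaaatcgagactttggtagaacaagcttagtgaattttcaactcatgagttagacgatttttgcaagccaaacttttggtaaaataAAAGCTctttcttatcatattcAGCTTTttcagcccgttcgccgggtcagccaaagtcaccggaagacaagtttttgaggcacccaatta
Cpr65Ay: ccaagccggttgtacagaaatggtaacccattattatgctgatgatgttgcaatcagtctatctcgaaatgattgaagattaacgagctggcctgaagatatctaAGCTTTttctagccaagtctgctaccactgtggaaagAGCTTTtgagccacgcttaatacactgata
Cpr23B: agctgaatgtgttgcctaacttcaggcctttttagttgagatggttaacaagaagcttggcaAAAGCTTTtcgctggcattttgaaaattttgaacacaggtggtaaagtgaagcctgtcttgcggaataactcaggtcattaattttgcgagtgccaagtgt

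The stretch at *TwdlG* holds 4 matches counted over both strands, and the palindrome AAAGCTTT counts as 2 of them. The other 3 stretches hold 2 matches each, and at *Cpr23B* both belong to 1 palindrome. In windows reaching 100 bp to each side of the summit, *Cpr51A* likewise held 2. All 5 peaks found in both lists therefore had the word in each list, against 75.8% of all such peaks in replicate 1 and 77.1% in replicate 2. The distance from the replicate 1 summit to the nearest match was 3 bp at *Cpr23B*, 8 bp at *Cpr65Ay*, 14 bp at *Cpr62Ba*, 17 bp at *TwdlG* and 23 bp at *Cpr51A*. The word was named in earlier results of these data, so its presence here is a description, not independent support.

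Close promoter binding was rare among the members. Within 200 bp of a TSS, replicate 1 had a summit at 1 of the 96 members (1.04%), against 4.56% of all genes and 5.50% of protein-coding genes. Replicate 2 had one at 2 members (2.08%), against 25.4% of all genes and 30.9% of protein-coding genes. Among peaks found in both lists, the count was 1 member (1.04%), against 4.51% of all genes and 5.44% of protein-coding genes. The gene with such a peak in each list was *TwdlG*, and the other one in replicate 2 was *Cpr73D*. With so few members at the replicate 1 rate, 1 gene more or less moves the share by as much as the share itself, whereas the replicate 2 share lay far below its background.

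Within 2000 bp, replicate 1 had a summit at 6 members (6.25%), against 10.2% of all genes and 11.0% of protein-coding genes. Replicate 2 had one at 12 members (12.5%), against 43.3% of all genes and 47.1% of protein-coding genes. Peaks found in both lists lay this near 5 members (5.21%), against 9.39% of all genes and 10.1% of protein-coding genes. In all, 13 members had a summit within 2000 bp in at least 1 list, and 83 had none in either. The 8 members on X had none in either list, and 4 of them stand in 1 array. Among protein-coding genes on X, 10.2% had a summit this near in replicate 1 and 49.7% in replicate 2. With so few genes, the replicate 1 count on X says little. By family, 5 of 70 Cpr genes and 1 of 26 Twdl genes had a replicate 1 summit at this distance, and 11 Cpr genes and 1 Twdl gene had a replicate 2 summit.

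In replicate 2 the ratio between the shares was most unequal close to the start site. Within 100 bp, 1.04% of members and 26.6% of protein-coding genes had a replicate 2 summit. At 5000 bp the shares were 34.4% of members and 63.7% of protein-coding genes, and at 20000 bp they were 83.3% and 90.0%, members first. In replicate 1 the shares were 16.7% of members and 18.4% of protein-coding genes at 5000 bp, 24.0% and 29.0% at 10000 bp, and 43.8% and 45.7% at 20000 bp. The median distance from a TSS to the nearest summit was 22.7 kb for members and 23.2 kb for protein-coding genes in replicate 1. In replicate 2 it was 8.79 kb for members and 2.45 kb for protein-coding genes. The median distance to a replicate 2 summit was 16.9 kb for Twdl genes and 6.90 kb for Cpr genes, but in replicate 1 the order was the opposite, at 20.1 kb for Twdl genes and 24.4 kb for Cpr genes. Most Twdl genes stand in a few arrays, so these distances are not independent.

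**Figure D1:**
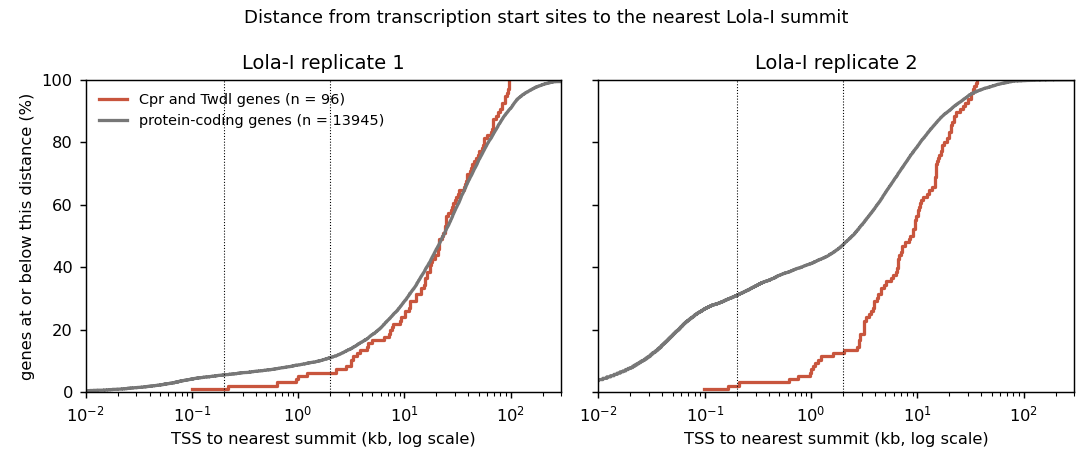
Cumulative share of genes (y axis, %) against the distance from the nearest TSS to the nearest Lola-I summit (x axis, kb, log scale) for 96 members and for the 13945 protein-coding genes on arms that carry a summit. Dotted lines mark 200 bp and 2000 bp: in replicate 2 the member curve stays at 2.08% and 12.5% there while the protein-coding curve reaches about 30.9% and 47.1%, and in replicate 1 the curves stand at 16.7% and 18.4% at 5 kb and at 24.0% and 29.0% at 10 kb, members first.

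*TwdlG* (FBgn0037225; 3R, 4248723 to 4251341, minus strand) encodes a Tweedle cuticle protein and was the member with a promoter peak in both lists. The replicate 1 summit lay 100 bp upstream of the outermost TSS, with a fold enrichment of 4.92 and rank 775 of 1750. The replicate 2 summit lay 99 bp upstream, 1 bp from it, with a fold enrichment of 39.9 and rank 786 of 9665. Replicate 2 alone had 2 further peaks inside the gene, each upstream of an internal TSS and within the annotated 5′ UTR. One lay 162 bp upstream of its TSS with a fold enrichment of 20.4, and the other lay 140 bp upstream with a fold enrichment of 4.62. Every annotated start of *TwdlG* thus had a replicate 2 summit within 200 bp upstream, and the outermost one had a replicate 1 summit as well.

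*Cpr62Ba* (FBgn0035279; 3L, 1824129 to 1831783, minus strand), a gene of the chitin-binding CPR family, had the highest fold enrichment of the members in both lists. Its replicate 1 summit lay 221 bp upstream of the TSS, with a fold enrichment of 12.7 and rank 289. Its replicate 2 summit lay 210 bp upstream, with a fold enrichment of 100.9 and rank 309. These summits fall just outside the 200 bp limit, and no other TSS lay nearer. The values next to the limit on the other side are those of *Cpr73D* at 166 bp in replicate 2 and *TwdlG* at 100 bp in replicate 1.

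At the other 3 members with a peak found in both lists, the summit lay downstream of the start site and near other genes. At *Cpr65Ay* (FBgn0085300; 3L, 6158075 to 6158630, minus strand) the summits lay 72 bp past the 3′ end in replicate 1 and 61 bp past it in replicate 2. They were 627 bp and 616 bp downstream of its TSS, and at -626 bp and -637 bp, thus upstream, from the start of *CG13297*. The fold enrichment was 7.25 in replicate 1, at rank 564, and 67.3 in replicate 2, at rank 496. The peak thus sits between a member and its neighbour, at nearly the same distance from either start. A second peak, in replicate 2 alone, lay at -80 bp from the *CG13297* start with a fold enrichment of 8.14.

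*Cpr23B* (FBgn0031467; 2L, 2838411 to 2839547, plus strand) had its summits 63 bp past the 3′ end in replicate 1 and 28 bp past it in replicate 2. They lay 1199 bp and 1164 bp downstream of its own TSS, but at -514 bp and -549 bp from the start of *CG2975*. The fold enrichment was 3.28 in replicate 1, at rank 1204, and 23.5 in replicate 2, at rank 1292, the lowest of the 5 in both lists. A peak of replicate 2 alone lay 9 bp inside *CG2975*. *Cpr51A* (FBgn0033942; 2R, 14512559 to 14515211, minus strand) had its summits in an intron, 997 bp downstream of the TSS in replicate 1 and 990 bp in replicate 2. Its fold enrichment was 7.42 in replicate 1, at rank 547, and 46.7 in replicate 2, at rank 703. The gene *CG30197* overlaps *Cpr51A*, and its TSS was 184 bp from the replicate 1 summit and 191 bp from the replicate 2 summit, nearer than the member's own.

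Across the 5 shared peaks, the summits of the lists lay 1 to 35 bp apart. Their ranks were 289 to 1204 of 1750 in replicate 1 and 309 to 1292 of 9665 in replicate 2, so all 5 were among the higher-ranked peaks of the larger list. The remaining 16 replicate 2 peaks near members had ranks from 1388 to 8343 and fold enrichments from 3.28 to 20.4. None of these 16 ranked above any of the 5 shared peaks. The ranks of all shared peaks were not set beside these, so the pattern may not be particular to the members.

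**Figure D2:**
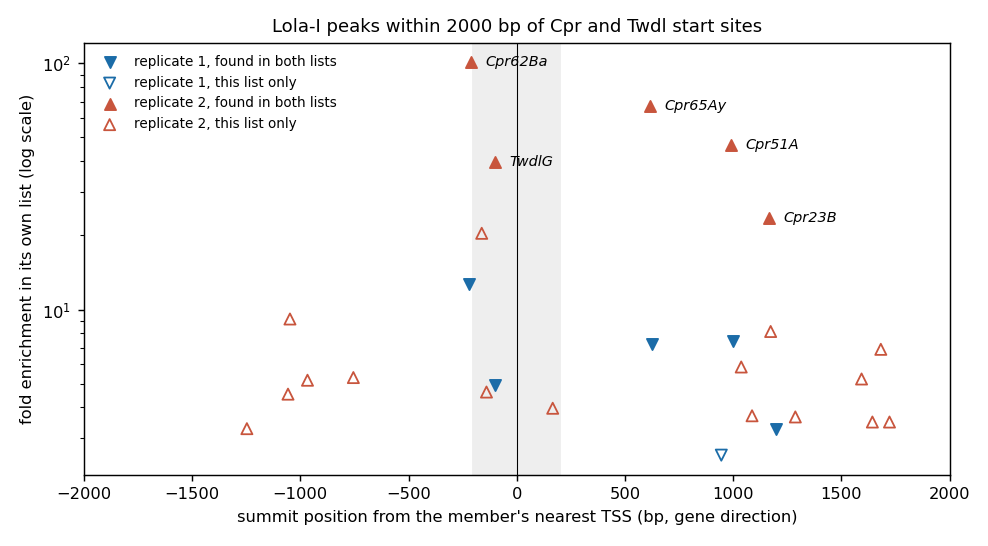
Fold enrichment in its own list (y axis, log scale) against the position of each Lola-I summit from the member's nearest TSS (x axis, bp, negative upstream), for the 6 replicate 1 and 21 replicate 2 summits within 2000 bp. Filled symbols are peaks found in both lists, the grey band spans 200 bp on each side of the TSS, and the 5 filled replicate 2 triangles, from 23.5 to 100.9, stand above every open one.

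**Figure D3:**
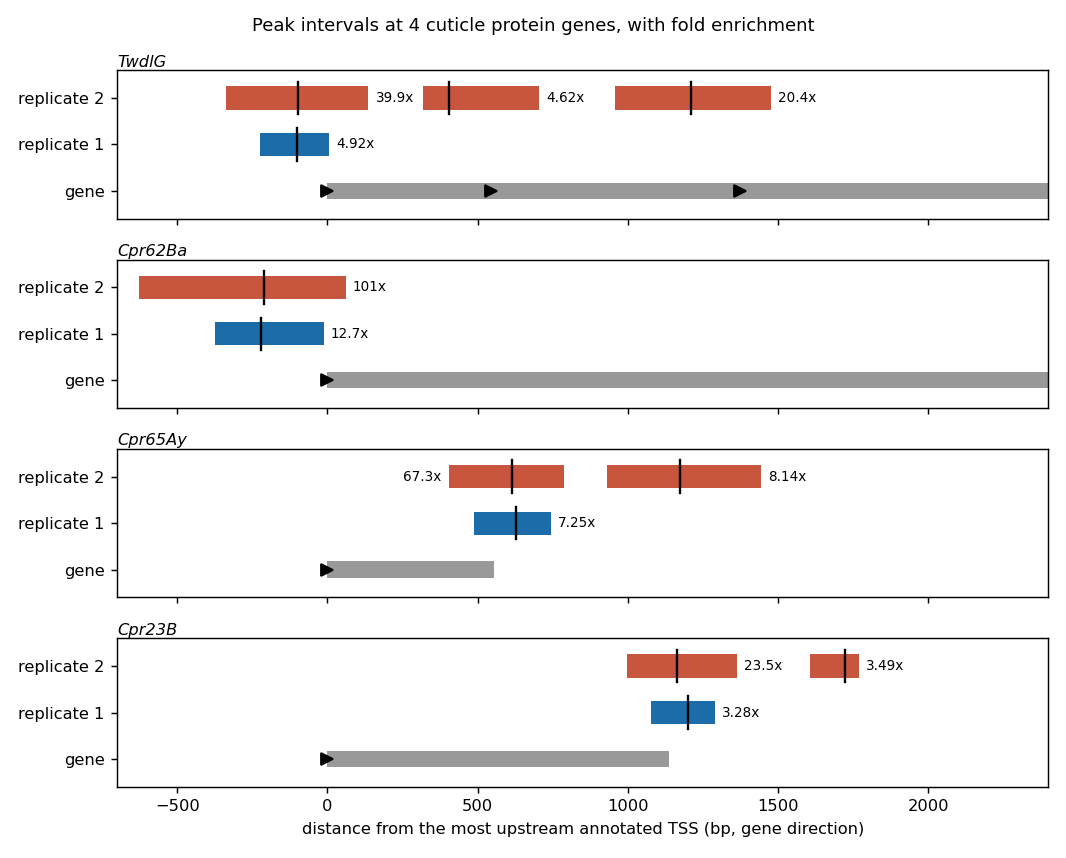
Peak intervals of both replicates at *TwdlG*, *Cpr62Ba*, *Cpr65Ay* and *Cpr23B* (x axis, bp from the outermost TSS in the direction of the gene), with black ticks at the summits, grey gene bodies, arrowheads at annotated TSSs and the fold enrichment beside each interval. For peaks found in both lists, the summits of *TwdlG* and *Cpr62Ba* lie upstream of the start and those of *Cpr65Ay* and *Cpr23B* lie just past the gene's end, while some intervals reach into the gene.

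The other 8 members with a summit within 2000 bp had one in 1 list only. *Cpr31A* (FBgn0053302; 2L, 10054213 to 10055935, plus strand) had a replicate 1 summit in its coding sequence, 945 bp downstream of the TSS, at rank 1606 and a fold enrichment of 2.56, and its nearest replicate 2 summit was 2707 bp away. *Cpr73D* (FBgn0036680; 3L, 16939100 to 16957689, minus strand) had 4 replicate 2 summits within 2000 bp. The nearest lay 166 bp downstream of its TSS, in 5′ UTR, at rank 5838 and a fold enrichment of 3.97, and its nearest replicate 1 summit was 2282 bp away. The replicate 2 summit at 166 bp was also 84 bp from a TSS of *Ogdh*, which encodes an enzyme of the tricarboxylic acid cycle and overlaps *Cpr73D*. The remaining 6 genes had their nearest replicate 2 summit 755 to 1593 bp away, and 2 of them, *Cpr47Eg* and *Cpr60D*, were chosen for naming after their values were seen. At *Cpr47Eg* the summit lay at -9 bp from the start of *CG9067*, and at *Cpr60D* it lay 4 bp inside *CG30161*. The member just beyond 2000 bp in replicate 2 was *Cpr57A*, at 2019 bp.

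Assigning each summit to its nearest TSS left fewer peaks with the members. Of the 6 replicate 1 summits within 2000 bp of a member, 3 were nearest to a member TSS. Of the 21 replicate 2 summits, 9 were nearest to one. Within 200 bp of the TSS of a gene that is not a member lay 1 of the 6 and 8 of the 21. Over all summits of each list these shares were 45.8% in replicate 1 and 47.9% in replicate 2, so neither count was above its background.

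In the same windows AAAGCT occurred at 5 of the 6 replicate 1 summits near members (83.3%), against 66.7% of all summits of that list. In replicate 2 it occurred at 10 of 21 (47.6%), against 28.9% of all summits. Among the 16 replicate 2 peaks near members that replicate 1 lacked, 5 held it, against 20.3% of all such peaks. The replicate 1 peak at *Cpr31A*, absent from replicate 2, did not hold it, and 3.20% of all such peaks did. The word GAGAG, a match to the element bound by GAGA factor, sought on both strands, occurred at 1 of 6 replicate 1 summits (16.7%), against 44.3% of all summits. In replicate 2 it occurred at 4 of 21 (19.0%), against 46.3% of all summits. None of the 5 peaks found in both lists held GAGAG.

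Tandem arrays hold most of the members. With neighbouring members at most 20 kb apart and at least 3 members to an array, there were 13 clusters with 65 members, spanning 217 kb. The largest is the Tweedle cluster from *TwdlM* to *TwdlD* on 3R, with 12 members in 21.9 kb. Next come *Cpr49Aa* to *Cpr49Ah* on 2R with 8, and *Cpr47Ea* to *Cpr47Eg* on 2R and *Cpr65Au* to *Cpr65Az* on 3L with 7 each. Genes that are not members also lie in these spans: 14 in *Cpr65Au* to *Cpr65Az*, 7 in *Cpr49Aa* to *Cpr49Ah* and 3 in *Cpr47Ea* to *Cpr47Eg*. The *TwdlM* to *TwdlD* span holds 1. Densities inside the clusters and stretches without a summit thus cover other genes too. The other 9 hold 3 or 4 members.

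Inside the clusters replicate 1 had 3 summits, or 1.38 per 100 kb (95% exact Poisson interval 0.285 to 4.04). In the 20 kb on each side it had 8, or 1.54 per 100 kb (0.664 to 3.03), and over the arms 1.27 per 100 kb. Replicate 2 had 8 summits inside, or 3.69 per 100 kb (1.59 to 7.27), and 49 beside, or 9.42 per 100 kb (6.97 to 12.5), against 7.03 over the arms. The replicate 2 density was thus lower inside than beside, with intervals that overlap slightly, and both intervals include the value of the arms. These intervals cover counting error only. Inside summits were in 3 of the 13 clusters in replicate 1 and in 5 in replicate 2. Summits beside were at 4 clusters in replicate 1 and at all 13 in replicate 2. The sides cover 520 kb and the clusters 217 kb, so these cluster counts cannot be compared directly.

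The summits inside the clusters belonged to a few genes. In replicate 1 they are the peaks at *Cpr62Ba*, *Cpr65Ay* and *TwdlG*, all found in both lists. In replicate 2 they are the same 3, 2 more at *TwdlG*, the second peak by *Cpr65Ay*, 1 peak in an intron of *Cpr47Ea* 1087 bp from its TSS, and 1 peak 755 bp upstream of *Cpr65Ec*. The *Cpr47Ea* peak had a fold enrichment of 3.70 and the *Cpr65Ec* peak 5.29, and neither was in replicate 1.

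Some peaks beside the clusters lay at promoters of genes outside these families. In replicate 1, 6 of 8 summits were within 200 bp of the TSS of a gene that is not a member, against 45.8% of all summits of that list on the arms. In replicate 2, 26 of 49 were, against 47.9%, so this share was near its background. As the 8 replicate 1 summits lay beside only 4 clusters, the replicate 1 share says little. None of the summits beside the clusters was within 200 bp of a member TSS in either list. The highest was at *AcCoAS*, an acetyl-CoA synthetase gene 11.8 kb from the *Cpr78Ca* to *Cpr78Cc* cluster, with a fold enrichment of 15.2 in replicate 1 and 101.2 in replicate 2. On the other side of that cluster, *Pc*, which encodes Polycomb, and *Rab26*, a small GTPase gene, each had a promoter peak found in both lists. The summit nearest to any of the 3 members between them was 6.75 kb from a TSS, that of *Cpr78Ca*. Next to the *Cpr64Aa* to *Cpr64Ad* cluster, *tipE*, which encodes a sodium channel subunit, had a promoter peak with a fold enrichment of 4.89 in replicate 1 and 25.9 in replicate 2, and the nearest member, *Cpr64Aa*, was 20.7 kb away. Peaks of both lists also lay at *Aps*, at -241 bp from its TSS in replicate 1 and -253 bp in replicate 2. The nearest member TSS, that of *Cpr67Fb*, was 5191 bp and 5203 bp from these summits in that order. Other summits at *Aps* lay nearer to *Cpr67Fb*, at 4919 bp in replicate 1 and 3874 bp in replicate 2.

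Beside the *Cpr72Ea* to *Cpr72Ec* cluster, peaks of replicate 2 alone lay at *ringer* and *CG4842*. The *CG4842* summit, at -1 bp from the start of that gene, was also the nearest to *Cpr72Ec*, at 1048 bp upstream, with a fold enrichment of 9.15. Near the *Cpr76Ba* to *Cpr76Bd* cluster, the nearest summit lay 813 bp past the end of *Cpr76Ba*, with a fold enrichment of 5.22 and in replicate 2 alone.

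The longest stretches without a replicate 2 summit ran through the largest arrays and an X-linked array. The stretch holding *Cpr49Aa* to *Cpr49Ah* reached 79.1 kb, and 2.63% of all gaps between neighbouring replicate 2 summits were as long. That around *TwdlM* to *TwdlD* reached 75.4 kb, with 2.77% as long, and that around *TwdlX* to *Twdlalpha* on X reached 56.1 kb, with 4.60%. In the other 10 clusters the longest stretch was 8.96 to 35.6 kb. A long gap is more likely to hold a long cluster, so these shares are a description. In the *TwdlM* to *TwdlD* cluster the nearest member to a replicate 2 summit was *TwdlM*, at 12.3 kb, and the farthest was *TwdlD*, at 33.2 kb. In replicate 1 the nearest was *TwdlD*, at 11.1 kb from a peak with a fold enrichment of 2.66 that replicate 2 lacked. The TSS nearest to that peak was that of *Tb*, the Tweedle gene left out by its symbol, with the summit at -5299 bp. In the *Cpr49Aa* to *Cpr49Ah* cluster the nearest member was *Cpr49Ah*, at 60.4 kb in replicate 1 and 9.62 kb in replicate 2. In the *TwdlX* to *Twdlalpha* cluster it was *TwdlX*, at 75.8 kb in replicate 1, and *Twdlalpha*, at 9.13 kb in replicate 2.

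**Figure D4:**
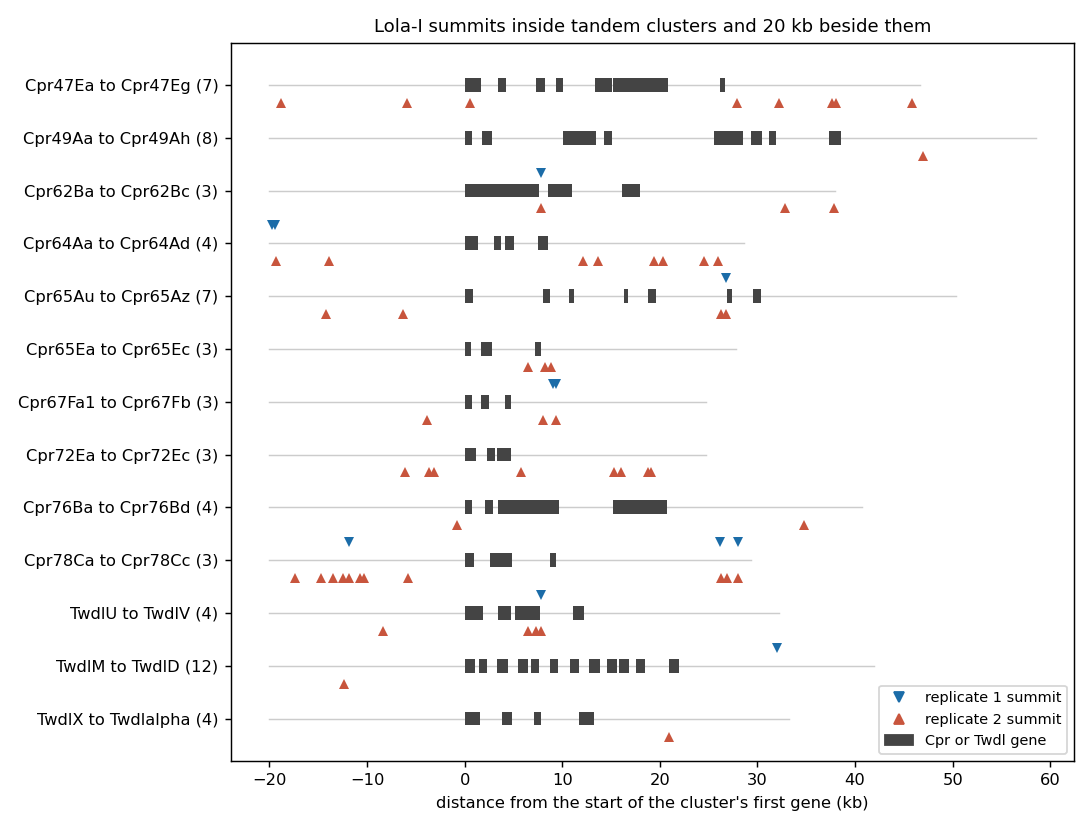
The 13 tandem clusters drawn to scale (x axis, kb from the start of the first member gene) with member genes as dark boxes, 20 kb on each side as grey lines, replicate 1 summits as triangles above and replicate 2 summits as triangles below; member numbers stand in brackets. Replicate 1 has 3 summits inside and 8 beside, and replicate 2 has 8 inside and 49 beside, with none inside the 12-gene *TwdlM* to *TwdlD* cluster.

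Reads from repeated sequence cannot be placed uniquely, so the uniqueness of the promoters was measured. All 32-base words within 200 bp of the TSS were unique in the genome for 88 of 96 members (91.7%), against 94.6% of protein-coding genes. *Cpr65Ax1* and *Cpr65Ax2* had no unique word, and their promoter stretches were 100% identical after a shift of 1 bp. A lack of peaks at these 2 genes is therefore not read as missing binding, although both remain in the counts above. *TwdlJ* and *TwdlK* were 90.0% unique, and the other members with repeated words lay between 91.6% and 99.5%. The part of repeated sequence in the counts above was not tested.

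Member promoters often held a TATA box. This motif, here C or G, then TATA, then A or T, then A, starting 45 to 15 bp upstream of the TSS on the strand of the gene, was found at 47 of 96 members (49.0%), against 7.76% of protein-coding genes. It was found at 35 of 70 Cpr genes and 12 of 26 Twdl genes. Its first base lay between -45 and -22, with a median at -31. An initiator, TCAGT followed by C or T within 10 bp of the TSS on the same strand, was found at 8.33% of members and 9.79% of protein-coding genes. GAGAG, on either strand from -150 to 50, was found at 19.8% of members and 23.0% of protein-coding genes. The median GC content of the bases within 100 bp of the TSS was 46.8% for members and 39.8% for protein-coding genes. Of the 13 members with a summit within 2000 bp in either list, 4 had the TATA box, against 43 of the 83 with none. Of the 5 members with a peak found in both lists, 1 had the TATA box, *Cpr23B*, with its first base at -29. Of the 7 with a summit in replicate 2 only, 3 had it, and the 1 with a summit in replicate 1 only did not. *TwdlG*, *Cpr62Ba* and *Cpr73D*, whose summits were nearest, had no such match, which says only that these letters are not in the window.

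The 60 bases upstream of the TSS are shown for examples of members without and with the match, in the direction of the gene, with the match in capitals. The first pair, *TwdlG* (chr3R:4251342-4251401, minus strand) and *Cpr62Ba* (chr3L:1831784-1831843, minus strand), had a peak found in both lists upstream. The others are examples of members that were the nearest to a summit in their cluster, had no peak found in both lists within 2000 bp and hold the match: *TwdlM* (chr3R:26619058-26619117, plus strand), *TwdlD* (chr3R:26639965-26640024, plus strand), *Cpr65Ec* (chr3L:7093144-7093203, plus strand) and *Cpr72Ec* (chr3L:16367341-16367400, minus strand), with the first base of the match at -27, -28, -27 and -32 in that order. *Cpr65Ec* and *Cpr72Ec* are the pair with replicate 2 summits at 755 bp and 1048 bp described above. Other members in that position, likewise without a shared peak within 2000 bp, had no match in the window, namely *Cpr47Ea*, *Cpr49Ah*, *Cpr67Fb*, *Cpr78Ca* and *Twdlalpha*. *Cpr67Fb* holds GTATAAA farther upstream than the window. *Cpr23B*, which had both a shared peak and the match, is not shown, so the examples do not compare members with and without a shared peak.
TwdlG: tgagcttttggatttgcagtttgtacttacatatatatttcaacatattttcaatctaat
Cpr62Ba: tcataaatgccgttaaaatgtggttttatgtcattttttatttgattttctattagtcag
TwdlM: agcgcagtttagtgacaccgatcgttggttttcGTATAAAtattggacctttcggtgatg
TwdlD: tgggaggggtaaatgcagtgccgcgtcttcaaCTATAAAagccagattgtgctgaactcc
Cpr65Ec: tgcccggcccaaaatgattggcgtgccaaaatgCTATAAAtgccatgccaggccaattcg
Cpr72Ec: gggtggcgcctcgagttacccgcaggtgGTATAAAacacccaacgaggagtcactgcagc

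Other genes of the cuticle were counted in the same way. Of 30 cuticle protein genes with other symbols (Lcp, Ccp84A and Edg genes, *Acp1*, *Acp65Aa* and *Pcp*), 1 had a summit within 200 bp in each list. This was *Lcp3*, a larval cuticle protein gene, with a summit at 190 bp and a fold enrichment of 5.12 in replicate 1, and at 196 bp and 39.2 in replicate 2. The share was thus 3.33% in each list, against 5.50% of protein-coding genes in replicate 1 and 30.9% in replicate 2. At up to 2000 bp, 3 of the 30 had a replicate 1 summit and 6 had a replicate 2 summit. The shares of protein-coding genes at that distance were 11.0% and 47.1%. With so few genes, the replicate 1 counts of this set say little. Of 41 listed genes for chitin, tanning, apical ZP proteins and regulators, 7 had a replicate 1 summit within 200 bp (17.1%) and 20 a replicate 2 summit (48.8%), against 5.50% and 30.9% of protein-coding genes. All 7 were among the 24 genes for chitin synthesis and assembly, and each peak was found in both lists. They are *serp*, *verm* and *Cda5*, which encode chitin deacetylases, *obst-B* and *obst-E*, which encode chitin-binding proteins, *exp*, which acts in tracheal chitin organisation, and *Vajk3*, a cuticle protein gene. Their fold enrichments were 2.24 to 7.08 in replicate 1 and 9.52 to 55.9 in replicate 2. None of the 7 tanning genes, the 7 ZP genes or the 3 regulators had a replicate 1 summit within 200 bp, and 1, 2 and 3 of them had a replicate 2 summit, in that order. With so few genes, the lack in replicate 1 cannot be told apart from the 5.50% of protein-coding genes. The replicate 1 summit of 1 regulator lay just outside the limit, at 205 bp.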

How the data were processed

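Chromatin of formaldehyde-fixed embryos was sonicated, precipitated and sequenced, per the labels' protocols. CASAVA 1.8.2, Bowtie 1.0.0 and the dm6 build are named in the submitters' processing notes; the peak caller, its control and its thresholds are not given in the sources used here. The authors deposited 1 peak list per replicate, with 10 columns and no header. In every peak (1759 in replicate 1, 9674 in replicate 2) the score the authors deposited is the −log10 p-value times 10, cut to a whole number. From the layout of the deposited lists, which follows the narrowPeak format, fold enrichment was read as a ratio to a background estimate, and the next columns as the −log10 p-value and −log10 q-value, each set within one library. Ranks follow the score within a list, so the more extensive replicate 2 list was never pooled with replicate 1.

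Annotation was that of Ensembl release 115 (BDGP 6.54), and bases were read from the RefSeq Release 6 genome, which shares dm6 coordinates. Each peak was represented by its summit, and distances run from the TSS in the direction of the gene. Every TSS of a gene counted, so 1 summit may be counted for several genes. The analysis used Python 3.11.15, NumPy 2.4.6, SciPy 1.17.1 and matplotlib 3.10.9. The cluster rule was tested on simulated positions, and the overlap and strand rules on a few hand-written cases with known answers. With 1 group and no read counts, no test between conditions was made; counts are set beside shares over all genes or peaks. TATA boxes and initiators were sought at 1 TSS per gene, the one shared by most transcripts.

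The members, lists, words and tests were chosen with earlier results of these data known. Named were members with a summit within 200 bp in either list, members with a replicate 1 summit within 2000 bp, the member nearest to a summit in each cluster, genes whose TSS was nearest to a described peak, and listed genes with a summit within 200 bp in both lists. *Cpr47Eg*, *Cpr57A*, *Cpr60D*, *Cpr65Ax1*, *Cpr65Ax2*, *TwdlJ* and *TwdlK* were named after their values were seen. Of 43 listed chitin, tanning, ZP and regulator symbols, 41 were found. The distance series, the split of the words by sharing and the uniqueness values were added after the lists had been seen. Alternatives covered the distance, the overlap rule, the list, the TSS choice, the cluster rule and the window.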

Additional observations from a re-analysis of the deposited data

How the results depend on the processing

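Of 83 alternatives tried over 19 results, 53 left the value within 1.5 times the reported one and 30 moved it further. For the number of members with a summit within 200 bp, replicate 1 gave 1 member, and 2 at 500 bp and 5 at 1000 bp. Replicate 2 gave 2 members, but 1 with only the higher-scoring 50% of the list, with each summit assigned to the nearest TSS, with as many peaks as replicate 1, or at 100 bp, and 7 at 1000 bp. Protein-coding genes moved too: with the higher-scoring 50% of replicate 2 the shares within 200 bp were 1.04% of members and 17.6% of protein-coding genes, and with as many peaks as replicate 1 they were 1.04% and 6.39%. At 1000 bp they were 5.21% and 8.66% in replicate 1 and 7.29% and 41.1% in replicate 2. Peaks found in both lists gave 1 member, and 2 at 500 bp, 4 at 1000 bp and 0 where a reciprocal overlap of at least 50% was required, which lost *TwdlG*; the lists alone, leaving out each replicate in turn, gave 1 to 2. Within 2000 bp, assignment to the nearest TSS lowered the counts to 3 members in replicate 1, 7 in replicate 2 and 2 for both lists, from 6, 12 and 5. Replicate 2 gave 7 with the higher-scoring 50% and 5 with as many peaks as replicate 1, which is 7.29% and 5.21% of members, against 29.3% and 12.2% of protein-coding genes. With assignment to the nearest TSS, 3.12% of members and 7.71% of protein-coding genes had a replicate 1 summit, and 7.29% and 33.8% a replicate 2 summit. At 5000 bp the counts were 16, 33 and 14. The lists alone gave 6 to 12.

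Inside the clusters, the density in replicate 1 was 2.32 summits per 100 kb where gaps of 50 kb were allowed, and replicate 2 gave 2.31 with the higher-scoring 50%, against 3.51 over the arms. Beside them, replicate 1 fell to 0.769 with the higher-scoring 50% and with 10 kb on each side, replicate 2 to 4.04 with the higher-scoring 50%, and both lists together to 0.769 under each of these choices. Leaving out each replicate gave 1.38 to 3.69 inside and 1.54 to 9.42 beside. GAGAG at replicate 2 summits near members went to 9.52% in a window of 50 bp on each side. Distance and list size act by construction, and the cause of the other changes was not tested. The other alternatives left values within 1.5 times, among them the use of all TSSs for the TATA box, at 51.0%.

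No paired analysis was possible because only 1 group with peak lists was used. The counts rest on few genes, and a peak missing from the smaller list does not show missing binding at an unknown depth. Shared neighbours and overlapping genes let 1 summit count for several genes.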
